A study of Drosophila melanogaster with 2 samples.

Results

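The genes described here encode subunits of the Mediator complex and of the general transcription factors of RNA polymerase II in Drosophila melanogaster. They were taken by symbol, as the protein-coding genes of the Ensembl annotation whose names start with MED or Taf and a digit, or with TfII. This gave 49 genes of 13968, namely 25 MED genes, 15 Taf genes and 9 TfII genes. The label holds for all but a few: TfIIS encodes an elongation factor, and Taf12L and TfIIA-S-2 are testis paralogues.

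The assay was ChIP-seq with an anti-GFP antibody on whole embryos collected from 0 to 24 h, from transgenic flies of the strain CG7372-GFP that express CG7372 fused to eGFP, with chromatin sonicated to 200 to 800 bp. All samples carry the fusion, and what drives its expression is not given in the labels. The labels name 2 biological replicates of 1 group and sex was not recorded. There is no second condition, so no test between samples was possible, and no control library was analysed here. Embryos of all stages and tissues were pooled, so a site used in few cells cannot be told apart from one used weakly in many.

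Most protein-coding genes are transcribed by RNA polymerase II, which cannot find a promoter by itself. TFIID, made of the TATA-binding protein and its associated factors (TAFs), recognises the core promoter, TFIIA and TFIIB join it, TFIIF brings the polymerase, and TFIIE and TFIIH open the DNA. Mediator bridges activators and this machinery through its head, middle and tail modules, with a separable kinase module. In the testis, paralogues of several TAFs replace the broadly expressed proteins in a programme of spermatocyte genes.

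Bound here means that at least 1 of a gene's transcription start sites (TSS) had a summit of the conservative peak list within 500 bp. A summit is the base that the peak caller marks as the top of a peak, and the conservative list, made from both replicates, is cut at a threshold on reproducibility. By this rule 13 of the 49 genes were bound (26.5%), against 16.7% of all protein-coding genes. They were the Mediator genes MED4, MED7, MED16, MED17, MED27, MED30 and MED31, the TFIID genes Taf2, Taf4, Taf5 and Taf11, and TfIIA-L and TfIIB. The share was 28.0% for the 25 MED genes, 26.7% for the 15 Taf genes and 22.2% for the 9 TfII genes. Most of these promoters face another gene. Divergent genes, with a protein-coding TSS read in the opposite direction within 1000 bp, made up 36 of the 49 members (73.5%) and 36.2% of all protein-coding genes. Of the 36 divergent members 12 were bound (33.3%), close to the 30.1% of all divergent genes. Of the 13 other members 1 was bound, where 9.07% of all other genes were. Within each promoter arrangement, the share of members bound therefore lay near that of all genes. When each summit was given to its nearest protein-coding TSS alone, 6 members remained bound (12.2%), the same share as over all genes (12.2%).

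The reference sequence at 7 of the summits of bound members is shown, as examples of the windows searched for promoter words. The lines give the plus strand of the dm6 assembly, 5′ to 3′, with 50 bp on either side of the summit, and are shorter where an annotated UTR begins. MED27, MED30, MED17 and TfIIA-L are strong sites, MED31 holds the short word found at many peaks of this protein, Taf4 has no other gene start nearby, and Taf11 holds a TATA word at its summit. Capitals mark CGTAT or TATAAA on either strand, within the printed bases only. A further TATAAA at Taf11 lies past the end of its line.
MED27, chr3R:5654955-5655055: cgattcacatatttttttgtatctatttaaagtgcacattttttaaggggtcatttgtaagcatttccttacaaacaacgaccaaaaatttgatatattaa
MED30, chr3L:654230-654330: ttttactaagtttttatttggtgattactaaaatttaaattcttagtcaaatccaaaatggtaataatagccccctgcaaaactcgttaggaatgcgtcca
MED17, chr3R:18188944-18189044: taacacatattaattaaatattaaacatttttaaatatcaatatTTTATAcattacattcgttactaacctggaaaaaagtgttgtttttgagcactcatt
TfIIA-L, chr3R:27253220-27253320: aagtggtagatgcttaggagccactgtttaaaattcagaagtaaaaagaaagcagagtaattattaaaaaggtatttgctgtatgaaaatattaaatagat
MED31, chr3R:4641715-4641795: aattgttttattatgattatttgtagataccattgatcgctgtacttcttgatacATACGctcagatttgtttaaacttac
Taf4, chr3L:16113569-16113669: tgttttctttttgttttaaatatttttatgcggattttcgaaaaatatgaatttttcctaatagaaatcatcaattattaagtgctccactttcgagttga
Taf11, chr2L:9763287-9763368: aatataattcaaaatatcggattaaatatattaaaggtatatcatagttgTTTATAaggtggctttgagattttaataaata

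The word common at other peaks of CG7372 was found at few of these summits, a count near the share at divergent genes. Searched on either strand within 50 bp of the summit, CGTAT occurred at 1 of the 13 bound members (MED31) and at 30.8% of all 4593 summits. It occurred at 18.2% of the 1820 summits within 500 bp of a protein-coding TSS and at 13.4% of the 924 summits at divergent genes. The longer words CATACGCC, GCGTATAC and CGCATACG, which each contain CGTAT on one strand, occurred at none of the 13. At least 1 of them occurred at 19.9% of all summits, at 7.69% of those near a protein-coding TSS and at 2.27% of those at divergent genes. The member summits thus lacked these words as most summits at divergent genes do.

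The member summits were rich in A and T. Their A and T content ran from 59.4% at TfIIB to 84.2% at Taf2, with a median of 72.3%, against medians of 68.3% for summits at divergent genes and 63.4% for all summits. TATAAA, the letters of a TATA box, occurred on either strand at the summits of MED17, Taf11, Taf2 and Taf5. That is 4 of 13, against 23.4% of summits at divergent genes and 17.0% of all. The word holds only A and T, and these shares were not adjusted for the A and T content of the windows. GAGAG (the GAGA element), TATCGATA (the DNA replication-related element, DRE) and GGTCACAC (the core of promoter motif 1) occurred at none of the 13. They occurred at 433, 55 and 29 of the 4593 summits. A match describes letters in a window and is not a binding site.

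The promoters held some of these words. In the 300 bp from 250 before to 50 after the gene start, GGTCACAC occurred in 12 of 49 members (24.5%) and in 7.69% of all protein-coding promoters. Of the 12, Taf4 and Taf5 were bound, where 13 of all 49 members were (26.5%). The other 10 lay among the 36 unbound members, among them MED8, MED10, MED11, MED15 and Taf1. At Taf4 the word lay in the window at the gene start, not at the internal start beside its summit. How many of all promoters with this word were bound was not counted. Nor was the share of divergent promoters that hold this or the other words, although most members are divergent. TATCGATA occurred in 8 members (16.3%), of which MED7 and MED17 were bound, and in 9.36% of all promoters. CGTAT occurred in 18 members (36.7%) and 28.8% of all promoters, and TATAAA in 23 (46.9%) and 45.8%. GAGAG occurred in 8 members (16.3%) and in 29.7% of all promoters. CATACGCC, GCGTATAC and CGCATACG were in none of the 49 windows and in 0.415%, 0.537% and 0.523% of all.

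**Figure D1:**
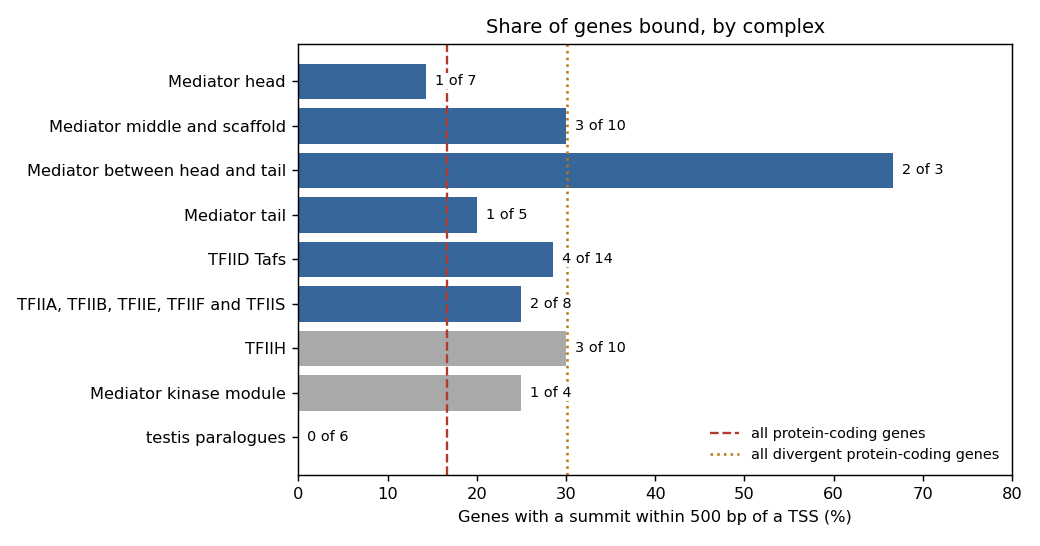
Bars give the share of genes (%, x axis) with a conservative summit within 500 bp of a TSS for each complex or list, with the count beside each bar. Blue bars hold members, grey bars hold genes outside the symbol rule, apart from Taf12L and TfIIA-S-2 in the testis list (an empty bar); the lines mark all protein-coding genes (16.7%) and all divergent ones (30.1%).

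The bound MED genes were spread over all the modules that members fall in. Sources differ on where MED27, MED28 and MED30 sit, and they are counted here as a group of their own between head and tail. Of these 3 members, MED27 and MED30 were bound and MED28 was not. In the middle module and the scaffold 3 of 10 were bound (MED4, MED7 and MED31), in the tail 1 of 5 (MED16) and in the head 1 of 7 (MED17). The background is 16.7% of all protein-coding genes and 30.1% of divergent ones. These counts are small, and the modules were not compared by a test.

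MED27 had the highest signal of all members. Its summit at 3R:5655005 lay 134 bp upstream of its start and ranked 216 of 4594 in the conservative list, with a signal of 338. Signal is the authors' own height for each peak, in units the labels do not explain, and values are compared within 1 list only. The signal at MED27 was 192 in the list of replicate 1 and 143 in that of replicate 2. Its divergent partner elm starts 278 bp away, and the summit lay about midway between them.

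Among the MED genes, MED30 was next, with a signal of 202 at 3L:654280, 191 bp upstream of its start. It had a signal of 111 in replicate 1 and 89.2 in replicate 2. The summit was nearer to its partner Rev1, which encodes a DNA polymerase that copies past damage, at 83 bp. MED17, a subunit of the head, had a signal of 196 at 3R:18188994, 78 bp upstream, with 95.2 in replicate 1 and 90.3 in replicate 2. All of these were found in the thresholded lists of both replicates.

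MED31 and MED7, of the middle module, had intermediate signals. At MED31 the signal was 135, with 78.4 in replicate 1 and 59.0 in replicate 2, and the summit at 3R:4641765 lay 198 bp upstream. That summit was inside an intron of CG9775, whose start was 73 bp away, and slx1 starts at the same base as MED31. At MED7 the signal was 128, with 61.5 in replicate 1 and 68.8 in replicate 2, and the summit at 3R:10761072 lay 40 bp upstream, the closest of all members. Its partner Cap-H2, a condensin II subunit gene, starts 278 bp from it.

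MED4 and MED16 were weaker and were kept in 1 replicate list. MED4, of the middle module, had a signal of 72.2 at 3L:7250684, 157 bp upstream, in an exon of the antisense gene asRNA:CR43470. Its signals were 36.5 in replicate 1 and 36.7 in replicate 2. MED4 was the bound member without a divergent protein-coding partner. MED16, a tail subunit, had a signal of 68.7 at 2R:22183018, 120 bp upstream, with 33.2 in replicate 1 and 42.2 in replicate 2. Both were in the thresholded list of replicate 2 and only in the ranked list of replicate 1, which also holds unreproducible peaks.

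The 18 unbound MED genes were MED6, MED8, MED11, MED18, MED20 and MED22 of the head, MED1, MED9, MED10, MED14, MED19, MED21 and MED26 of the middle and scaffold, MED15, MED23, MED24 and MED25 of the tail, and MED28. MED19 came nearest, with a conservative summit 555 bp upstream of its start and 20 bp from a start of CG7430. For MED21 the nearest summit on its arm was 2151209 bp away. MED18 and MED22 had no summit within 500 bp in any ranked list.

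Of the 14 TFIID genes among the members, 4 were bound. Taf5 encodes a WD-repeat protein at the centre of TFIID. Its signal was 305 at 2R:10879826, 153 bp upstream, ranked 266, with 193 in replicate 1, the highest of the members there, and 113 in replicate 2. The summit was 148 bp from its partner Pex6, a peroxisome biogenesis gene. Taf2, whose protein contacts promoter DNA around the start, had a signal of 142 at 3L:9888944, 261 bp upstream, with 85.0 in replicate 1 and 64.1 in replicate 2. That summit lay in the 5′ UTR of CalpB, a calpain protease gene, 160 bp from the nearest CalpB start.

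Taf4, whose protein pairs with Taf12 through histone-fold domains, had a signal of 88.7 at 3L:16113619, in an intron of Taf4 itself. The summit lay 171 bp upstream of an internal Taf4 start, and no other gene started within 500 bp of it. Its divergent partner Zn72D starts 586 bp from Taf4. Its signals were 46.8 in replicate 1, outside the thresholded list, and 40.1 in replicate 2, inside it. Taf11, the histone-fold partner of Taf13, had the lowest signal of the bound members, 50.4 at 2L:9763337, 75 bp upstream. It had 32.0 in replicate 1 and 25.9 in replicate 2, was in neither replicate's thresholded list, and its summit was 32 bp from its partner und.

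The other TFIID genes, Taf1, Taf3, Taf6, Taf7, Taf8, Taf9, Taf10, Taf10b, Taf12 and Taf13, were not bound. Among them are Taf1, the largest TAF, and Taf6 and Taf9, a further histone-fold pair. Taf10 and Taf10b start 45 bp apart in opposite directions and share 1 promoter, whose strongest ranked summit had a signal of 44.7. It lay 342 bp into Taf10, and its reproducibility score of 696 was under the lowest score kept, 830. Taf1, Taf3 and Taf6 had no summit within 500 bp in any of the 3 ranked lists.

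TfIIA-L and TfIIB were the bound TfII genes. TfIIA-L encodes a precursor that is cut into the large subunits of TFIIA. Its summit, of signal 167, lay at 3R:27253270 in an intron, 160 bp upstream of an internal start and 88 bp from the start of pll, the Pelle kinase gene of the Toll pathway. Its nearest divergent partner, TTLL6B, starts 105 bp from TfIIA-L. The signal was 71.3 in replicate 1 and 105 in replicate 2, so the order of TfIIA-L among the members differed between replicates. TfIIB, which links the TATA-binding protein to the polymerase, had a signal of 58.9 at 2L:10430995, 343 bp upstream and the farthest of the 13. It was 77 bp from the start of Bug22, a cilium gene, and had 27.7 in replicate 1 and 38.2 in replicate 2.

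TfIIA-S, the gene of the small TFIIA subunit, was not bound by the rule but had a strong ranked peak. In the ranked list of the series its summit lay at 3R:23891126, 66 bp upstream, with a signal of 76.2 and a score of 1000, the highest possible. The signals were 29.6 in replicate 1, at a score of 82, and 42.4 in replicate 2, at a score of 1000. Of 4675 ranked peaks with a score of 830 or more, 82 are missing from the conservative list, and this was the one such peak near a member. Why these peaks are missing was not tested. TfIIEalpha and TfIIEbeta, the subunit genes of TFIIE, had no ranked summit within 500 bp. TfIIFalpha and TfIIFbeta, those of TFIIF, had ranked summits of signal 24.6 and 12.5, and TfIIS had one in replicate 2 alone (11.3).

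**Figure D2:**
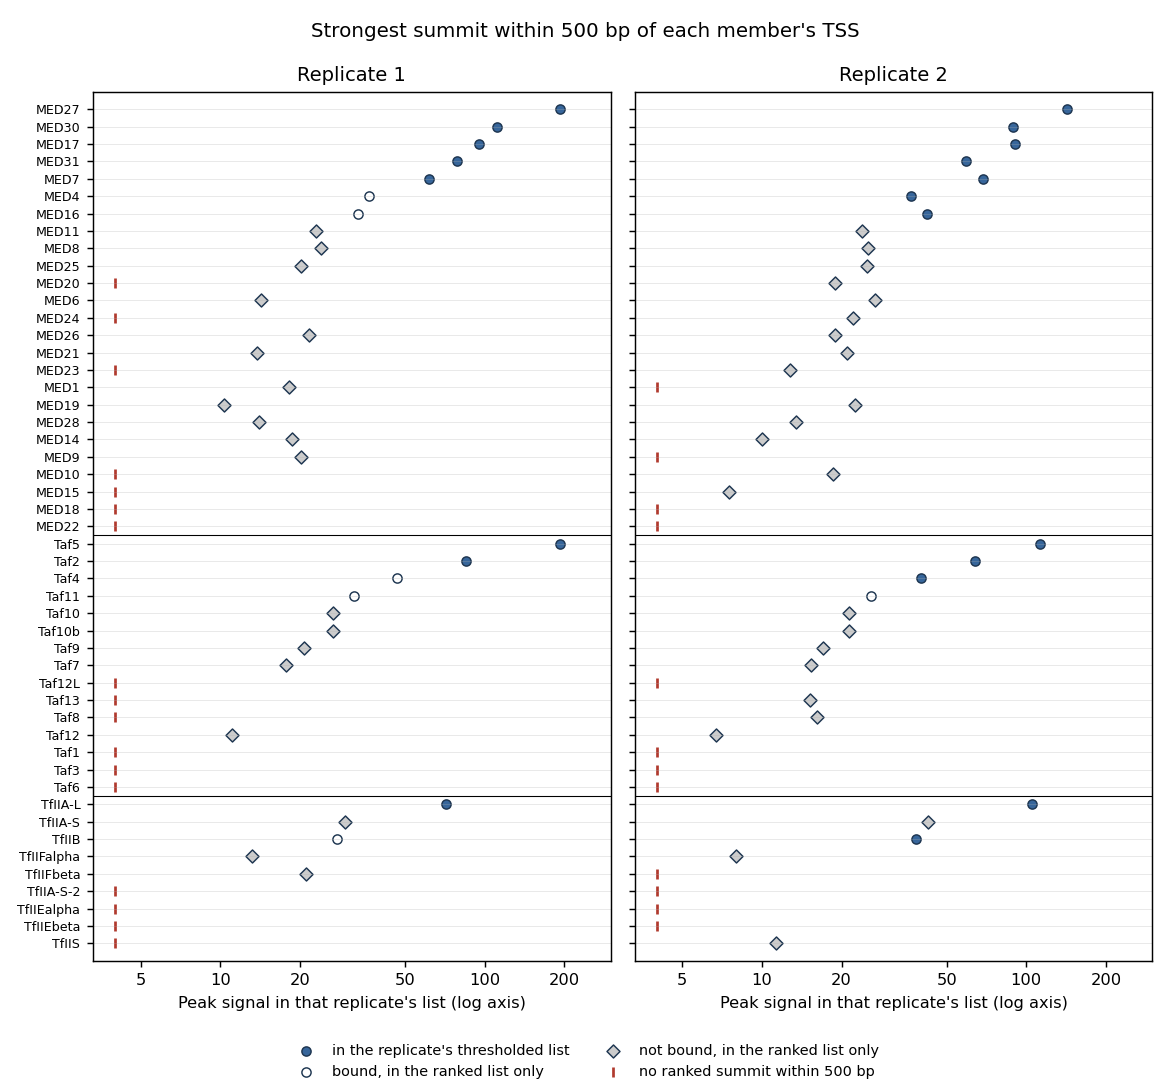
Each row is 1 of the 49 members and the x axis (log scale) gives the signal of its strongest summit within 500 bp of a TSS, in replicate 1 (left) and replicate 2 (right). Red ticks, set at an arbitrary place on the left, mark members with no ranked summit; the values run up to 193 at Taf5 in replicate 1 and 143 at MED27 in replicate 2.

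The strongest members were called in both replicates and the weakest were not. Of the 49 members, 8 had a thresholded summit within 500 bp in replicate 1 (16.3%, against 11.8% of all protein-coding genes). In replicate 2, 12 did (24.5%, against 13.0%). The share over divergent genes alone, which most members are, was not computed for the replicate lists. The 8 were also among the 12, and with replicate 1 alone MED4, MED16, Taf4, Taf11 and TfIIB would not be called. Over the bound members the signal ran from 27.7 to 193 in the ranked list of replicate 1, with a median of 71.3. In replicate 2 it ran from 25.9 to 143, with a median of 64.1.

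Most unbound members had a ranked peak that was not kept. In the ranked list of the series, 38 of 49 members had a summit within 500 bp (77.6%), as did 67.8% of all protein-coding genes. Of the 36 unbound members 25 had one, with signals from 5.20 to 76.2 and a median of 31.9. The median signal over all ranked peaks of that list was 19.5. That median counts every peak, near a gene start or not, while a member's value is its strongest summit. The medians are therefore not like for like. Apart from TfIIA-S, the next highest were MED11 (46.9), MED8 (45.7) and the shared summit of Taf10 and Taf10b (44.7), all below the 50.4 of Taf11. The lowest reproducibility score in the conservative list was 830. Taf11 (943) and TfIIB (955) lay above it, and Taf10 with Taf10b (696) and MED8 (683) below it. The score alone does not decide which peaks are kept, as TfIIA-S shows. The 8 members with no ranked summit near them were MED18, MED22, Taf1, Taf3, Taf6, TfIIA-S-2, TfIIEalpha and TfIIEbeta.

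The distance to the nearest conservative summit exceeded 2000 bp for 31 of the 36 unbound members, and the median over the 36 was 6690.5 bp. The same distance was not computed for all unbound protein-coding genes, so it is not known whether these values are large. The other 5 were MED19, Taf12 at 1426 bp, TfIIEalpha at 1542 bp, Taf10b at 1841 bp and Taf10 at 1886 bp. In each case the summit was nearer to another gene, namely CG18476 for Taf12, CG32085 for TfIIEalpha, aph-1 for the Taf10 pair and CG7430 for MED19.

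All 13 summits lay upstream of the nearest own start of the bound member. This held for 87.0% of the 2330 bound protein-coding genes, so it is common at these peaks. The distance ran from 40 to 343 bp with a median of 157 bp, and the median absolute distance over all bound genes was 148 bp. At 10 of the 13 the summit fell between the member's start and the start of a gene read the other way. In all, 12 of the 13 shared the summit with another gene, 11 of them with a protein-coding one, as did 59.8% of all bound genes. At these promoters the data do not say to which gene a summit belongs. The partner distance was taken as the shortest between any start of a gene and any divergent start. For the bound divergent members it ran from 79 to 586 bp, with a median of 276 bp. For the 24 unbound divergent members it ran from 19 to 899 bp, with a median of 151.5 bp. At MED31, Taf2, Taf4 and TfIIA-L the starts so measured were not those on either side of the summit. The distance was not summarised over all divergent genes.

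**Figure D3:**
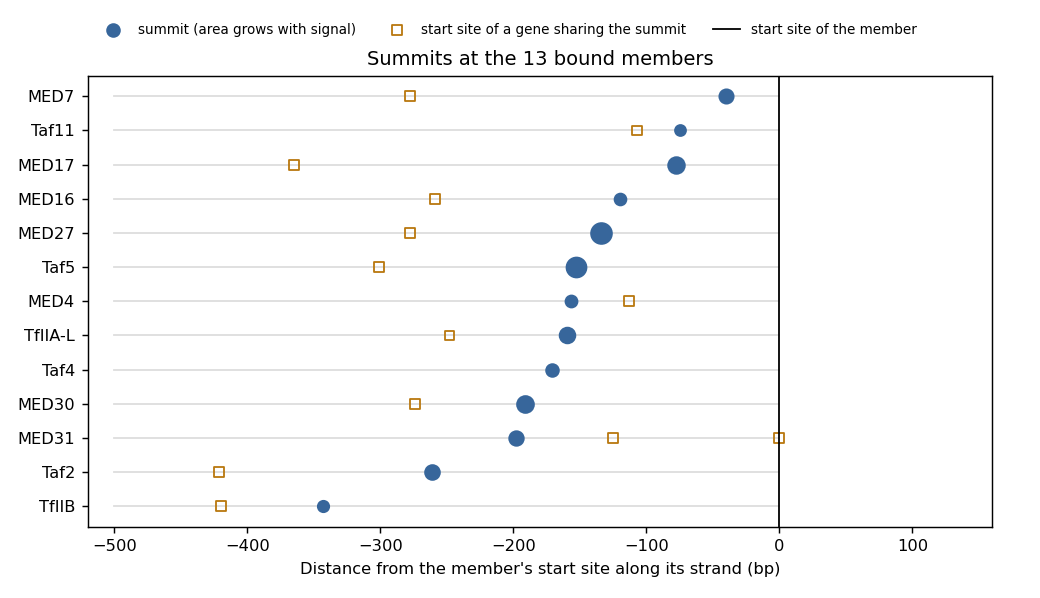
Blue points give the conservative summit of each bound member by its distance in bp from the member's start (x axis, negative is upstream), with larger points for higher signal. Open squares mark the starts of genes that share the summit; all 13 points lie left of the line at 0, from 40 to 343 bp upstream.

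The bound members lay on 4 arms, with 5 of 14 on 3R, 4 of 14 on 3L, 2 of 9 on 2L and 2 of 5 on 2R. Over all protein-coding genes the shares bound were 18.1% on 3R, 18.3% on 3L, 15.8% on 2L and 15.8% on 2R. None of the 5 on X (MED18, MED22, Taf8, Taf9 and TfIIA-S-2) and neither of the 2 on chromosome 4 (MED26 and Taf3) was bound. Over all protein-coding genes, those shares were 15.3% on X and 2.50% on chromosome 4.

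Broadly expressed factors and their testis paralogues were set side by side. None of the 6 testis paralogues was bound: can (of Taf5), sa (of Taf8), mia (of Taf6), nht (of Taf4), Taf12L (of Taf12) and TfIIA-S-2 (of TfIIA-S). Of the 6 broadly expressed counterparts, Taf4 and Taf5 were bound. The groups also differ in arrangement, as 5 of the 6 counterparts and 1 of the 6 paralogues are divergent, and the part of arrangement in this contrast was not tested. The background is 16.7% of all protein-coding genes and 9.07% of those without a divergent partner, so a count of 0 among 6 genes is near it.

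In the ranked list of the series 3 of the 6 paralogues had a summit within 500 bp, where 67.8% of all protein-coding genes did, and 5 of 6 had one in at least 1 ranked list. In the list of the series Taf12L had a signal of 28.4, mia 13.9 and sa 12.8, all below the 50.4 of Taf11, the lowest bound member. The median over all ranked peaks was 19.5, so Taf12L lay above it and the other pair below. That median counts every ranked peak, not the strongest one near each gene. The gene can had a ranked summit in replicate 1 alone (16.1) and nht in replicate 2 alone (14.7), and TfIIA-S-2 had none. Among the counterparts Taf5 and Taf4 had 305 and 88.7, TfIIA-S 76.2, Taf8 18.0 and Taf12 12.3, while Taf6 had none. In the ranked list of the series Taf8, Taf6 and Taf12 therefore had no higher signal than the paralogue Taf12L. Taf12L, however, had no summit within 500 bp in the ranked list of either replicate. Taf12 had a ranked summit in both replicates (11.1 in replicate 1 and 6.71 in replicate 2). Taf8 had one in replicate 2 alone (16.2), and Taf6 had none in either.

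Of the listed genes that the symbol rule misses, 5 of 20 were bound (25.0%, against 16.7% of all protein-coding genes). These 20 include wda and Saf6 of SAGA and the TBP relatives Trf and Trf2, which are not subunits of Mediator or the general factors of most promoters. Without these 4 the count was 4 of 16 (25.0%). In TFIIH, whose helicases open the promoter and which also repairs DNA, 3 of 10 were bound. These were Ssl1 (signal 888, ranked 24), mrn (246), which encodes the Tfb2 subunit, and Tfb5 (61.8). The Ssl1 summit lay in the 5′ UTR of Chro, a chromosomal protein gene, 96 bp from its start. Xpd, hay, Tfb1, Tfb4, Cdk7, CycH and Mat1 were not bound, though Tfb4 had a thresholded summit in replicate 2 (signal 40.1). Xpd had one in the series-level thresholded list, with a signal of 52.9 and a score of 854, and by that list 4 of the 10 TFIIH genes and 6 of the 20 listed genes were bound.

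In the kinase module of Mediator, skd (MED13) was bound with a signal of 137, 422 bp upstream and 59 bp from Pdss2, while kto (MED12), Cdk8 and CycC were not. The gene ix, which encodes MED29, was not bound, nor were Tbp, the TATA-binding protein gene, or its relatives Trf and Trf2. Trf starts 47 bp from MED20 in the opposite direction, so both share 1 unbound promoter. Of the SAGA genes related to TAFs, wda (of Taf5) was bound with a signal of 212, 87 bp from Pex11c, and Saf6 (of Taf6) was not. These 5 bound genes among the 20 were all divergent, and none of them was the nearest protein-coding gene to its summit.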

How the data were processed

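The deposited files are peak lists on dm6, per the file listings: 1 thresholded and 1 ranked list per replicate and series-wide lists made from alignments of both replicates. No source used here names the aligner, peak caller or settings. The columns of peak signal and of score, which scales the irreproducible discovery rate, were used as deposited by the authors. Read depth is unknown, because the files hold no read counts. Replicate numbers come from the labels.

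Peaks on unplaced sequences were left out, which kept 4593 of 4594 conservative peaks. Genes and TSS came from BDGP6.54 (Ensembl release 115), and sequence from RefSeq Release 6. All peak ends lay within its arm lengths. Computation used Python 3.11.15 and pandas 2.3.3, and the assignment of summits to genes was tested on simulated data. Words were searched on both strands, and promoter windows were set from the annotated gene start.

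The members, lists and words were chosen with earlier results of these data known, and the word counts by summit class and the search for ranked peaks missing from the conservative list were added after seeing the data. The text accounts for every member, and gives values for bound members, for unbound ones near a summit and for listed partners. The old names e(y)1, bip2 and rye are Taf9, Taf3 and Taf12L in this annotation, so these became members. The alternatives changed the TSS distance, list, signal, assignment, replicate and letter case. No member was left out.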

Additional observations from a re-analysis of the deposited data

How the results depend on the processing

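The count of 13 bound members stayed within 1.5 times under TSS distances of 200 and 1000 bp (11 and 14). It did so too under the series-level list (12, without Taf11) and for peaks at or above the median signal (9). It fell to 6 with the nearest TSS alone. For members and all protein-coding genes, the shares were 22.4% and 11.6% at 200 bp, and 28.6% and 19.7% at 1000 bp. They were 24.5% and 16.8% by the series-level list and 18.4% and 10.9% above the median signal. With the nearest TSS both were 12.2%. These shares were not split by promoter arrangement, although 73.5% of members and 36.2% of all protein-coding genes are divergent. They therefore do not show an excess at members beyond arrangement. The lists of single replicates gave 12 without replicate 1 and 8 without replicate 2. For the Taf genes, 4 became 1 with the nearest TSS and ranged from 2 to 3 without a replicate. For the TfII genes, 2 became 1 at 200 bp, 1 above the median signal and 0 with the nearest TSS, and ranged from 1 to 2 without a replicate. For the 20 listed genes outside the symbol rule, 5 became 3 at 200 bp and 0 with the nearest TSS. Over all protein-coding genes, 2330 became 1519 above the median signal. The 7 bound Mediator genes ranged from 5 to 8, and the testis paralogues were at 0 under every alternative run. The 200 bp distance, the median signal and the nearest TSS alone can only remove genes, so a count of 0 was fixed under them. With the nearest TSS alone, a shared summit counts for 1 gene. No paired analysis was possible because there is 1 group. Read depth is unknown and signal has no stated scale, so the weak calls carry no interval.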

Other observations

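TAF1B and TAF1C-like, named after factors of RNA polymerase I and written in capitals, fall outside the symbol rule, and both were bound. TAF1B had a signal of 67.4 at 3R:10144258, 74 bp upstream, with 45.8 in replicate 1 and 30.5 in replicate 2, in neither replicate's thresholded list. TAF1C-like had a signal of 92.5 at 2R:21501995, 263 bp upstream and 102 bp from MESK2, with 47.5 in replicate 1 and 45.8 in replicate 2. Both are divergent genes, with Invadolysin at 484 bp from TAF1B and MESK2 at 365 bp from TAF1C-like. With them, 15 of 51 genes (29.4%) were bound, against 16.7% of all protein-coding genes and 30.1% of divergent ones.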
